A study of Arabidopsis thaliana with 28 samples.

Results

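Whole-seedling RNA of *Arabidopsis thaliana* was sequenced in 24 libraries, 3 numbered replicates of 8 genotypes, and the comparison described here sets the 8 libraries numbered replicate 3 against the 8 numbered replicate 1, genotype by genotype. The genotypes were *ddm1*-ColxC24, *ddm1*-C24xCol, *ddm1*-Col, *ddm1*-C24, WT-ColxC24, WT-C24xCol, WT-Col and WT-C24, that is, the accessions Col and C24 and both reciprocal hybrids, with and without loss of DDM1, a chromatin remodeller that maintains DNA methylation. All seedlings were 2 weeks old, grown on Murashige and Skoog agar plates at 22 °C with 16 h of light and 8 h of dark after 7 days at 4 °C, and none was treated. In the hybrids the parent written first was the mother, and the *ddm1* hybrids came from crosses of 2 *ddm1* parents. The labels used here name no *ddm1* allele for a library. They do not say what the replicate number stands for, or whether equal numbers in different genotypes share a plate set, a harvest or a sequencing run. The members were the 16 libraries of 24 carrying either number, and 22007 of 28437 genes, those with at least 1 RPM (reads of a gene scaled to the total of its library) in at least 3 of the 16. The 8 replicate 2 libraries took no part in the choice of genes or in the test and were used to see where a further set of libraries fell.

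A plant's transcriptome changes strongly over the day. A circadian clock combines morning-expressed repressors (CCA1, LHY and some PRR proteins) with evening-expressed partners (TOC1, GI and the ELF4-ELF3-LUX complex). It drives rhythms in photosynthesis genes, in growth regulators such as PIF4 and PIF5, and in stress genes. Light, sugar, nutrients and the share of dividing cells move other sets, among them the ribosomal protein genes, whose promoters often carry short motifs known as site II and the telo-box.

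All 13 listed antenna genes of photosystem II were lower in replicate 3 than in replicate 1, by unequal amounts. Their differences ran from −6.154 to −0.725 on the log2 scale, with a median of −3.82. LHCB4.3, an antenna gene outside the list, rose. Most morning clock genes, PIF4, PIF5, most genes of dark and sugar starvation and 34 of 58 extensins also fell in replicate 3. Flavonol synthesis genes, type-A cytokinin response regulators, most genes of the iron, sulfur and ribosomal protein lists and several evening clock genes rose. The extensin and flavonol synthesis groups were chosen after values of these data were seen. Each library was compared as log2(RPM + 0.5) with limma, genotype as a block, and an adjusted p (Benjamini-Hochberg over all 22007 genes) under 0.05 was the threshold. Adjusted p-values below come from that fit unless another setting or a contrast of shifts is named. Differences are replicate 3 minus replicate 1 on that scale, which understates changes of genes with low values. The standard errors measure how far the shift varied among the 8 genotypes. If a number marks 1 shared event, such as 1 harvest, the p-values do not measure how far another such event would differ.

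Of the 22007 genes, 17042 (77.4%) passed the test (limma), 12138 of them higher in replicate 3 (55.2%) and 4904 lower (22.3%). The median difference over all genes was 0.28, and the 5th and 95th percentiles were −0.92 and 1.43. A fold over 2 was reached by 3101 of the higher and 931 of the lower genes, and a fold over 4 by 307 and 145. All 8 replicate 3 libraries lay above all 8 replicate 1 libraries for 5852 genes (26.6%) and below them for 1882 (8.55%). RPM values of every library share 1 fixed sum, so a fall in a few abundant genes raises the rest. The 100 most abundant genes held 16.7 to 19.2% of the total in replicate 3 libraries, against 23.4 to 27.3% in replicate 1 libraries. When libraries were rescaled by the median ratio over genes, the median difference was 0.001 and 8269 genes (37.6%) were higher and 8233 (37.4%) lower, with 475 genes called higher as deposited and lower once rescaled and 0 the other way. Counts in both directions are therefore given as deposited, with rescaled counts beside them. Each list's count is to be read against these shares of all genes, 55.2% higher and 22.3% lower as deposited, and 37.6% and 37.4% after rescaling. Genes listed at 0 numbered 2113 to 5470 in replicate 3 libraries and 3599 to 6076 in replicate 1 libraries. In all 8 genotypes the replicate 3 library had fewer than its replicate 1 partner. The counts were 5470 against 5999 in WT-C24xCol and 2318 against 3865 in *ddm1*-Col, for example. The read depth behind the values is unknown, and its part in the differences was not tested.

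The number was the second largest source of variance. In a principal component analysis of all 24 libraries 89.2% of the spread along the second axis lay between replicate numbers. Scores ran from 38.9 to 70.7 in replicate 3, and from −84.2 to −32.1 in replicate 1. The replicate 2 libraries scored between −6.77 and 68.2. The first axis held 54.9% and lay almost wholly between genotypes. Within the 16 libraries alone, genotype took 72.2% of the sum of squares, the number 24.7% and the remainder 3.13%. The shift was much alike in the genotypes: between the replicate 3 minus replicate 1 differences of any pair of genotypes (28 pairs, across 22007 genes, which are not independent replicates) Pearson's r ran from 0.753 to 0.93 with a median of 0.858. This axis was the reason for making the comparison and so is given as a description. It also depended on scaling, since with a pseudocount of 0.1 the second axis had 45.8% between numbers and with every gene scaled to unit variance the number moved to the first axis (95.2%).

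**Figure D1:**
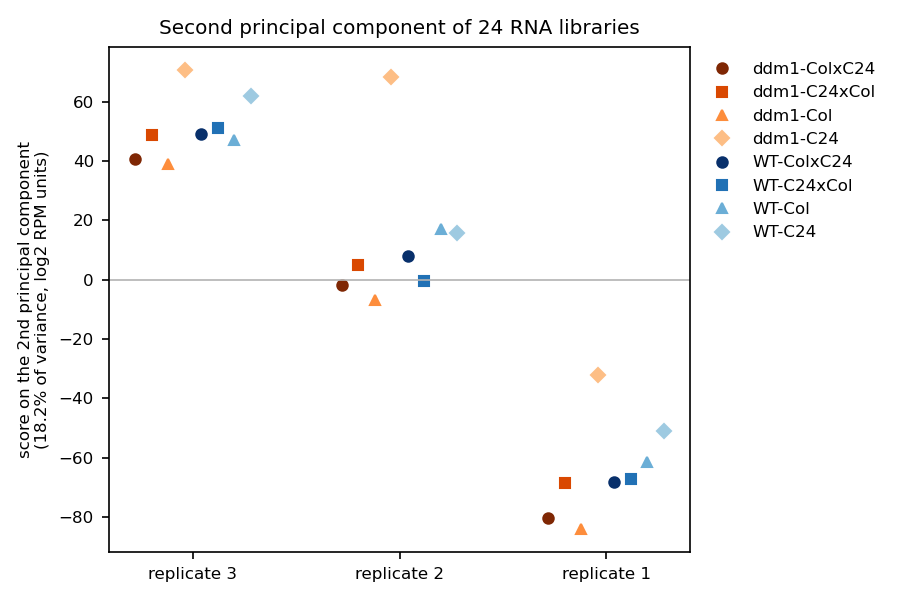
Score of each library on the second principal component of log2(RPM + 0.5) for replicates 3, 2 and 1 (columns) and 8 genotypes (symbols). The replicate 3 libraries lie between 38.9 and 70.7, the replicate 1 libraries between −84.2 and −32.1, and 7 replicate 2 libraries between them, with *ddm1*-C24 replicate 2 at 68.2 among the replicate 3 libraries.

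One library stood apart from its number. *ddm1*-C24 replicate 2 was closer to *ddm1*-C24 replicate 3 (SD of log2 differences over genes 0.182) than any other 2 of the 24 libraries were to each other, the next closest being WT-ColxC24 and WT-C24xCol of replicate 3 (0.209). It is therefore left out wherever replicate 2 is summarised over 7 genotypes, and its own values are named where they are used. Without both *ddm1*-C24 libraries, replicates 3 and 1 differed in 16792 genes, 11954 higher and 4838 lower in replicate 3. The list of seed marker genes, which 2-week-old seedlings should hardly use, was listed at a sum of 1.2 to 614.6 RPM (median 23.0) in replicate 3 and at 2.9 to 2014.8 RPM (median 164.5) in replicate 1, highest in WT-C24 in both numbers. Of the 10 seed markers tested, 9 fell in replicate 3 (90.0%, against 22.3% of all genes). CRU3, a seed storage globulin, had 0.1, 5.1 and 269.6 RPM (lowest, median and highest) in replicate 3 against 0.5, 80.35 and 1224.3 RPM in replicate 1. Its difference was −3.03 (adjusted p = 0.000124, and 0.0937 without the genotype block). CRA1, SESA1 and SESA3, other storage proteins, fell by 2.42, 1.94 and 1.85. Whether the seed transcripts moved with any other group below was not tested. Leaf markers were abundant in every library, with a summed RPM of 20085 to 22376 in replicate 3 and 26510 to 33081 in replicate 1.

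The light-harvesting genes fell by large amounts. Their proteins bind chlorophyll and pass light energy to the photosystems. LHCB2.2, which encodes a trimer-forming antenna protein of photosystem II, had 19.5, 35.15 and 61.3 RPM (lowest, median and highest of 8) in replicate 3, against 1137.7, 2437.3 and 3680.2 RPM in replicate 1. The ranges did not come near each other, and the difference was −6.04 (SE 0.17, adjusted p = 1.42e-11). Its sister genes LHCB2.3 (−6.15, SE 0.13) and LHCB2.1 (−5.36, SE 0.14) fell as much. LHCB1.1 had 55.5, 108.5 and 167.1 RPM in replicate 3, against 1733.7, 2088.75 and 3152.5 RPM in replicate 1. The other LHCB1 genes fell too, LHCB1.4 by 4.49, LHCB1.5 by 3.82 and CAB3 by 3.11 on the log2 scale. Members of the LHCB1 and LHCB2 families are near copies of each other, so the split of reads among them is uncertain, and LHCB1.5 and LHCB2.3 overlap genes on the opposite strand over 100% and 40.6% of their length, which cannot be told apart without knowing the strandedness of the libraries.

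Outside those families the antenna fell by unequal amounts. LHCB4.2, a minor antenna protein, had 56.8, 110.8 and 153.9 RPM in replicate 3, against 1056.3, 1589.45 and 2444.9 RPM in replicate 1 (difference −3.92, SE 0.11, adjusted p = 1.22e-11). Its close relative LHCB4.1 fell by 1.08, and LHCB4.3, the third gene of the type and not among the listed genes, went the other way. LHCB4.3 had 87.4, 128.2 and 194.6 RPM in replicate 3, against 8, 12.75 and 18.8 RPM in replicate 1 (difference 3.33, SE 0.13, adjusted p = 2.22e-10). All 8 libraries of replicate 3 thus had more LHCB4.3 and less LHCB4.2 than any of replicate 1. LHCB5 and LHCB6 fell by 0.72 and 1.20, and the 4 antenna genes of photosystem I, LHCA1 to LHCA4, fell by 1.11 to 2.42.

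The core of the photosystems moved less evenly. Of 12 photosystem I subunit genes 9 fell, PSAD2 most (−3.65), and PSAO rose (0.75). Of 7 photosystem II subunit genes 4 fell and PSBX rose (0.58). Among the genes of the Rubisco small subunit, the carbon-fixing enzyme of the stroma, RBCS1B rose by 1.29, RBCS2B by 0.59 and RBCS3B by 0.61, and RBCS1A had 11377, 13477 and 13769 RPM in replicate 3 against 13335, 15713 and 16420 RPM in replicate 1 (−0.25, adjusted p = 0.0498). GAPB, a Calvin cycle gene, also rose (0.85). Over the whole list of photosystem and small subunit genes, 31 of 40 fell (77.5%, against 22.3% of all genes tested) and 5 rose, or 35 and 5 after rescaling. Their summed level was 54362 to 63969 RPM in replicate 3 and 104837 to 144414 RPM in replicate 1.

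Morning genes of the clock fell in 8 of 9 cases (88.9%, against 22.3% of all genes), with a median difference of −2.03. CCA1, a MYB repressor that peaks at dawn, had 0.8, 1.6 and 2 RPM in replicate 3 against 4.7, 9.5 and 17.9 RPM in replicate 1 (difference −2.24, SE 0.19, adjusted p = 1.7e-07). LNK1 and LNK2, coactivators of clock genes, fell by 2.52 and 2.58. PRR7, a repressor of CCA1, had 41.3, 54.15 and 76 RPM in replicate 3, against 195.3, 215.85 and 283.6 RPM in replicate 1. Its relatives PRR5 and PRR9 fell by 2.03 and 1.73, and RVE1 differed by −0.06 (adjusted p = 0.802). LHY, the partner of CCA1, was at 0.5 to 0.9 RPM in replicate 3 and 0.7 to 3.2 RPM in replicate 1, close to the 0.1 RPM step of the values.

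The list of evening genes split: 8 of 11 rose (72.7%, against 55.2% of all genes) and 2 fell, with 5 and 2 after rescaling. ELF4, a subunit of the evening complex that represses growth genes, had 90.2, 108.45 and 112.9 RPM in replicate 3 and 12.3, 18.7 and 31.4 RPM in replicate 1 (difference 2.43, SE 0.11, adjusted p = 6.77e-10). GRP7, a clock-regulated RNA-binding protein, had 3601, 3793 and 4397 RPM in replicate 3 and 995, 1084 and 1770 RPM in replicate 1, and its relative GRP8 rose by 1.25. BOA, the LUX-related factor, rose by 1.92 and PRR3 by 1.14. GI, which links the clock to flowering and peaks in late afternoon, fell: 34.5, 66 and 97.1 RPM in replicate 3, against 221.9, 261.3 and 277.9 RPM in replicate 1. CDF1, a repressor of flowering genes counted in this list, fell by 1.68, and its placing among evening genes was not checked. For TOC1, ELF3 and FKF1 the rise was 0.31 to 0.41 as deposited and −0.02 to 0.08 when rescaled, so their direction rests on the scaling. LUX did not pass the test (0.14, adjusted p = 0.328).

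Several other genes with large differences are given singly. RVE2, a MYB-like relative of CCA1, had 112.2, 153.65 and 198.1 RPM in replicate 3, against 3.9, 5.9 and 9.7 RPM in replicate 1, a difference of 4.59 (SE 0.14, adjusted p = 2.38e-11). JMJD5, a clock-associated demethylase-like protein, rose by 3.36 and BBX16, a B-box protein, fell by 4.09. CIPK20, a protein kinase that binds calcium sensors, had 0.4, 1.45 and 2.4 RPM in replicate 3, against 37.1, 59.2 and 77.7 RPM in replicate 1, a difference of −5.02. OFP16 of the ovate family fell by 4.09.

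The promoters of a morning gene and of the 3 evening genes with an evening element and the largest differences are shown, since the clock acts through such letters. Each sequence runs 5′ to 3′ from 250 bases before to 50 after the annotated start in the RefSeq assembly TAIR10.1. Capitals mark the evening element (AAAATATCT on either strand) and the G-box (CACGTG, which reads the same on both strands). CCA1 lies on the plus strand of chromosome 2 (window chr2:19245341-19245640), BOA on the plus strand of chromosome 5 (chr5:24003638-24003937), GRP7 on the minus strand of chromosome 2 (chr2:9266508-9266807) and GRP8 on the minus strand of chromosome 4 (chr4:18275167-18275466).
CCA1: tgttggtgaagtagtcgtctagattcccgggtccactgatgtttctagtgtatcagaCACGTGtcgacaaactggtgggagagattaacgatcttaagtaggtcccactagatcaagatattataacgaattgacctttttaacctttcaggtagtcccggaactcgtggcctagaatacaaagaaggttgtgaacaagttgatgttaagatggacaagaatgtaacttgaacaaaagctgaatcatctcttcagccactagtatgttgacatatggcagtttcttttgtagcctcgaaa
BOA: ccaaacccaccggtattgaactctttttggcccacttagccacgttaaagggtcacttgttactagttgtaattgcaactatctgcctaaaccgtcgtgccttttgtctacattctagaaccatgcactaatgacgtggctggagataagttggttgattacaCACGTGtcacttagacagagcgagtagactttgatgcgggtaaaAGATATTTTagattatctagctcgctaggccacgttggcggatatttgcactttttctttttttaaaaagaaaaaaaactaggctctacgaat
GRP7: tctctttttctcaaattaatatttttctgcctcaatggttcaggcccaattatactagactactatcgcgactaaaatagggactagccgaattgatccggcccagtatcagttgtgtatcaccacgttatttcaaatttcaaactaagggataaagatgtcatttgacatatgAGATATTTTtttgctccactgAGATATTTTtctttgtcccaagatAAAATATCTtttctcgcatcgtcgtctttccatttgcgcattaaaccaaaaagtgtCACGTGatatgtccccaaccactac
GRP8: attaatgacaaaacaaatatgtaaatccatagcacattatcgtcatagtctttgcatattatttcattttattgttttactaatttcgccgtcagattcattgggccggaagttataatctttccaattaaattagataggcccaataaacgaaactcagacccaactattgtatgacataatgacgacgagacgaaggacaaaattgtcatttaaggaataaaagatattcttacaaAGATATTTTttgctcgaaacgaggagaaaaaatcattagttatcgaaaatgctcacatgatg
The CCA1 window held 1 G-box and 0 evening elements, the BOA window 1 of each, the GRP7 window 3 evening elements and 1 G-box, and the GRP8 window 1 evening element. An evening element was found in 6 of 11 evening gene windows (54.5%) and 2 of 9 morning gene windows (22.2%), against 2.84% of all 21978 windows. A G-box was found in 8 of 9 morning windows and 3 of 11 evening windows, against 8.29% of all. Over all genes the median difference was 0.27 with an evening element and 0.28 without. Among genes with a fold over 2, an evening element stood in 2.81% of those higher and 4.51% of those lower in replicate 3.

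Growth genes downstream of light and auxin fell in 7 of 10 cases (70.0%, background 22.3%) and rose in 2. PIF4, a bHLH factor that promotes stem and petiole elongation, had 10.9, 14.25 and 21.4 RPM in replicate 3, against 90.5, 185.45 and 229.3 RPM in replicate 1, a difference of −3.53 (SE 0.14, adjusted p = 2.07e-10). PIF5 fell by 3.50, the cell wall loosening expansin EXPA8 by 2.13 and PRE1, a growth-promoting HLH protein, by 1.78. Of the auxin-induced genes IAA29 and IAA1 fell (−1.35 and −1.07) and IAA19 rose (0.77), and the auxin synthesis gene YUC8 did not pass the test (−0.09, adjusted p = 0.599).

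**Figure D2:**
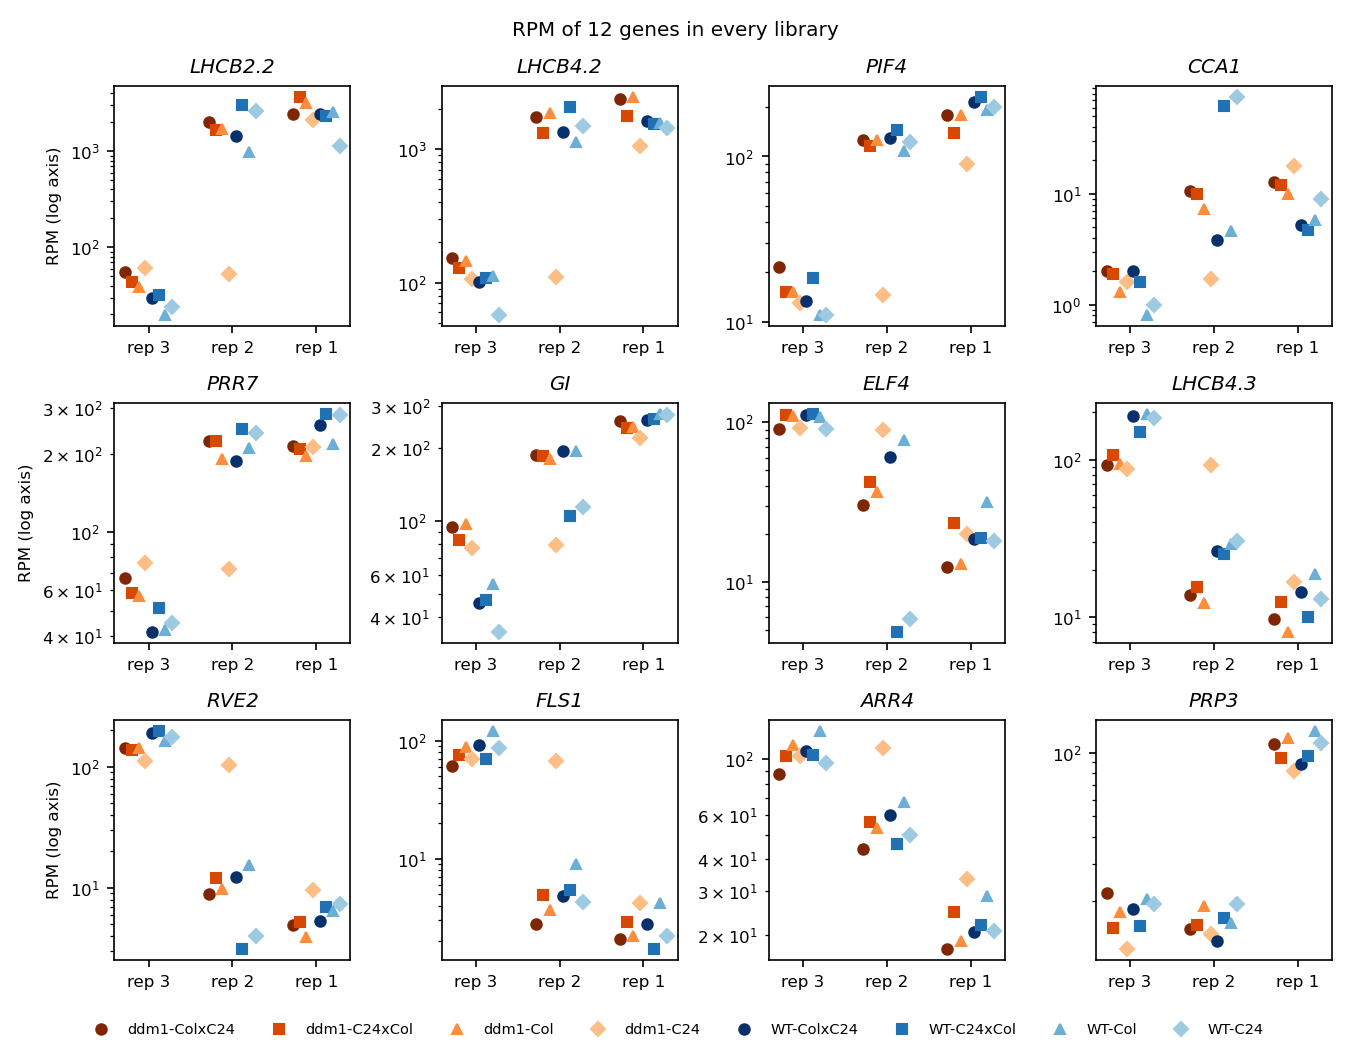
RPM of 12 genes (log axis) in replicates 3, 2 and 1 (columns), 1 symbol per library, with colours for the 8 genotypes. LHCB2.2, LHCB4.2, PIF4, CCA1, PRR7 and GI are lower in all 8 replicate 3 libraries than in any replicate 1 library, as is PRP3, and ELF4, LHCB4.3, RVE2, FLS1 and ARR4 are higher in all 8. For FLS1, LHCB4.3 and RVE2 the replicate 2 libraries of 7 genotypes lie near replicate 1, and for PRP3 they lie at the level of replicate 3.

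Cytokinin response rose as a block. Type-A response regulators are induced within minutes by cytokinin and damp its signal, and all 6 tested were higher in replicate 3 (background 55.2%), also after rescaling. ARR4 had 87.5, 103.65 and 129.8 RPM in replicate 3 and 17.5, 21.35 and 33.3 RPM in replicate 1 (difference 2.18, SE 0.08, adjusted p = 1.19e-10). ARR7 rose by 1.88, ARR16 by 1.69, ARR15 by 1.66 and ARR6 by 1.19, and ARR5 had 9.3, 12.45 and 16.3 RPM in replicate 3 and 2.7, 3.45 and 11.2 RPM in replicate 1. The ranges of replicates 3 and 1 overlapped for ARR5 alone.

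Flavonoid and anthocyanin genes rose in 9 of 11 cases (81.8%, background 55.2%) and fell in 1, or 9 and 2 after rescaling. FLS1, which makes flavonols, had 60.8, 81.8 and 121.8 RPM in replicate 3 and 1.7, 2.5 and 4.2 RPM in replicate 1 (difference 4.70, SE 0.11, adjusted p = 4.15e-12). TT4, the chalcone synthase that opens the pathway, had 184.9, 246.85 and 345.5 RPM in replicate 3, against a median of 26 and a highest of 51.2 RPM in replicate 1. The next enzyme TT5 rose by 2.87 and its helper CHIL by 3.16. Of the later enzymes, TT7, DFR and UF3GT rose by 1.83, 1.67 and 1.57, and LDOX had 5.9, 10.45 and 12.8 RPM in replicate 3 and 1.1, 1.75 and 5 RPM in replicate 1. MYBL2, a repressor of anthocyanin synthesis, fell by 3.11 with 13.9, 16.95 and 19.1 RPM in replicate 3 against 118.1, 151.8 and 185.6 RPM in replicate 1, and its activating counterpart PAP1 did not pass the test (−0.12, adjusted p = 0.402).

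Ribosomal protein genes rose broadly: 277 of 319 tested (86.8%, background 55.2%) were higher and 22 lower in replicate 3, or 232 and 41 after rescaling, with a median difference of 0.95 (0.63 rescaled). All 8 replicate 3 libraries exceeded all 8 replicate 1 libraries for 217 of the 319, against 26.6% of all genes tested. The summed level was 48115 to 53928 RPM in replicate 3 and 27176 to 34909 RPM in replicate 1. Among the largest rises were short L41 genes, AT3G11120 with 67.1, 81.95 and 97 RPM in replicate 3 against 5.8, 7.7 and 9.8 RPM in replicate 1 (difference 3.37), and AT3G08520 by 3.44. AT2G40205, also annotated L41, rose by 4.17, and 57.9% of it overlaps a gene on the other strand. AT5G22440, of the L1p/L10e family, rose by 3.71. Many of these genes are near copies of each other, so single values within a family are uncertain.

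The promoters of the 3 ribosomal protein genes with the largest rise among the 44 whose window held both a site II (TGGGCC on either strand) and a telo-box (AAACCCTAA on either strand) are shown with those letters in capitals. They are AT2G33370 on the minus strand of chromosome 2 (chr2:14144717-14145016, L14p/L23e family), AT5G02960 on the minus strand of chromosome 5 (chr5:694466-694765, S12/S23 family) and AT3G23390 on the plus strand of chromosome 3 (chr3:8375083-8375382, zinc-binding family).
AT2G33370: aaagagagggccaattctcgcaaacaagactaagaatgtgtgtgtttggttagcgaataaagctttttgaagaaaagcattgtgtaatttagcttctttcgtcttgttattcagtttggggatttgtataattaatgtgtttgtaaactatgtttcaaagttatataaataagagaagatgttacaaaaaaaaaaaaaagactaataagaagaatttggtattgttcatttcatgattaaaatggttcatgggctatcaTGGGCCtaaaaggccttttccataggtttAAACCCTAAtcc
AT5G02960: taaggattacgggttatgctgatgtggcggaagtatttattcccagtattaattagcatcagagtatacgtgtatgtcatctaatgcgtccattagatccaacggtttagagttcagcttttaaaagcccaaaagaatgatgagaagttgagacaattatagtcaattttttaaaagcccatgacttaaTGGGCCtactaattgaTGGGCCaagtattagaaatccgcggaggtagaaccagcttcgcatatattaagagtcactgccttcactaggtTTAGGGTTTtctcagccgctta
AT3G23390: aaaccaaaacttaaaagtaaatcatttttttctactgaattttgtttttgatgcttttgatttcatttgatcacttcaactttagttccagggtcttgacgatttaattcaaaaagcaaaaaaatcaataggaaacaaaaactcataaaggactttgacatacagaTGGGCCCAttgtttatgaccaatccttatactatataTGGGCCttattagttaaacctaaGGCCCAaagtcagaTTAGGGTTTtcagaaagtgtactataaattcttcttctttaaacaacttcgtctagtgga
AT2G33370 had 81.5, 94.8 and 118.2 RPM in replicate 3 and 8, 11.15 and 13.9 RPM in replicate 1 (difference 3.06). AT5G02960 had 331.1, 381.15 and 465.9 RPM in replicate 3 and 41.3, 53.6 and 77.4 RPM in replicate 1 (difference 2.81), and AT3G23390 rose by 2.68. The windows held 1, 2 and 4 site II matches, counting overlapping ones, and 1 telo-box each. Site II was present in 54.5% of ribosomal protein windows and in 17.3% of all windows, and the telo-box in 20.4% and 3.32%. Among genes with a fold over 2, site II stood in 24.1% of those higher and 7.95% of those lower in replicate 3, and the telo-box in 5.20% and 1.18%. Within the ribosomal genes the median difference was 1.06 with site II (174 genes) and 0.80 without it (145 genes). A match describes the letters and not a bound site.

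Small nucleolar and other noncoding RNA genes also moved. All 20 snoRNA genes tested were higher in replicate 3 (median 1.55), against 55.2% of all genes. Of 106 genes with the plain annotation ncRNA, 82 were higher and 6 lower (median 0.91). Other noncoding classes lay nearer the background. Of 50 lncRNA genes 32 were higher and 8 lower (median 0.46), and of 12 miRNA genes 7 and 3 (median 0.70). Among the noncoding genes that were higher was TAS1C, the precursor of a trans-acting small RNA family. It had 8.6, 10.95 and 13.5 RPM in replicate 3 against 0.5, 0.7 and 1.6 RPM in replicate 1. The 4 rRNA genes tested were lower (median −0.72). Among the other largest rises were AT3G05730, a defensin-like gene (3.74), RHA2A, a RING ubiquitin ligase gene (3.38), RALFL32, a signalling peptide gene (3.34), and NRPB12, a small subunit of RNA polymerase (3.17). RALFL32 is overlapped on the opposite strand over 100% of its length.

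Short and AT-rich transcripts shifted upward as a class. In 10 equal groups of genes by GC content of the transcript, the median difference was 0.42 in the lowest group and −0.05 in the highest, and by transcript length it was 0.52 in the shortest group and 0.13 in the longest. Across 21979 genes Spearman's rho was −0.227 with GC content and −0.161 with length, a description across genes that share the same libraries. Ribosomal protein transcripts had a median length of 1010 bases and 41.3% GC, photosystem transcripts 1207 bases and 43.9%, and all genes 1760 bases and 41.3%. The part of length and GC content in the list results was not tested.

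**Figure D3:**
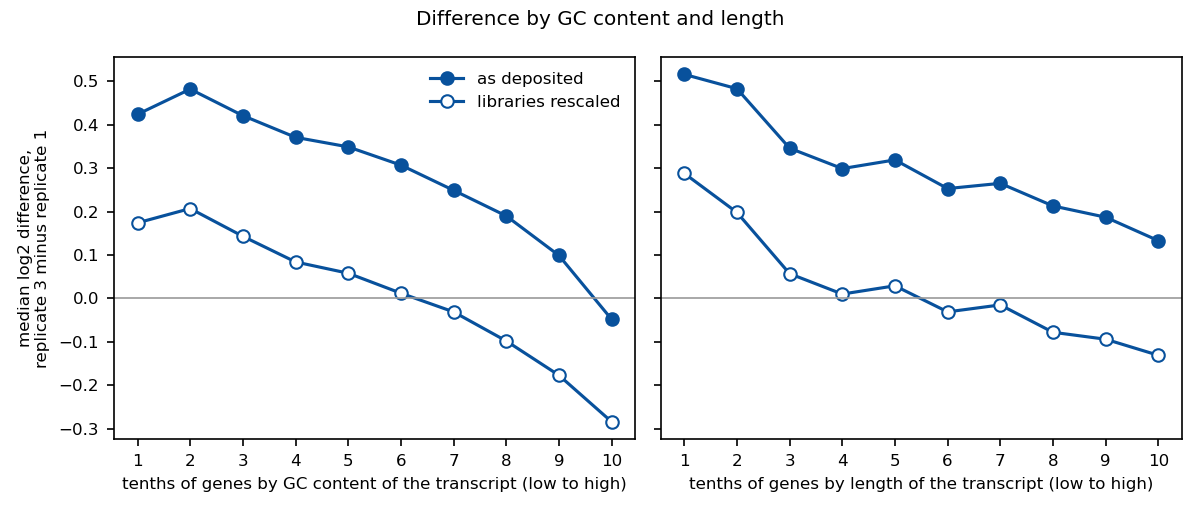
Median log2 difference, replicate 3 minus replicate 1, in 10 equal groups of genes by GC content (left) and by length (right) of the transcript, as deposited (filled) and with libraries rescaled (open). As deposited the medians run from 0.48 to −0.05 over the GC groups and from 0.52 to 0.13 over the length groups.

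Genes of the iron list rose in 12 of 16 cases (background 55.2%) and fell in 3, or 10 and 4 after rescaling. The list mixes iron deficiency genes with the storage genes FER1, FER3 and FER4. IRT1, the root iron transporter, had 5, 14 and 49.5 RPM in replicate 3 and 0.7, 2 and 31.5 RPM in replicate 1, with a rise in all 8 pairs though the ranges overlap (difference 2.03, SE 0.25, adjusted p = 6.37e-06). The iron-signalling peptide genes IMA1 and IMA2 rose by 2.39 and 2.11, and the regulators BHLH38, BHLH39 and BHLH100 by 1.47 to 1.65 from near 0. The storage genes did not move together, since FER3 rose by 2.16 and FER1 and FER4 fell by 0.45 and 0.26. Sulfur deficiency genes rose in 10 of 12 cases (83.3%, background 55.2%) and fell in 1, or 9 and 2 after rescaling. APR3, a sulfate assimilation enzyme, had 246, 323.1 and 391.1 RPM in replicate 3 and 83.1, 89.45 and 126.7 RPM in replicate 1 (difference 1.80), APR1 rose by 1.44, LSU1 by 2.00 and GGCT2;1, of glutathione recycling, by 2.28. The transporter SULTR1;1 fell by 0.43.

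Other nutrient lists went both ways. Of 11 nitrate genes 5 rose (45.5%, background 55.2%) and 5 fell (45.5%, background 22.3%), or 3 and 6 after rescaling: the nitrite reduction genes NIR1 and UPM1 rose by 1.11 and 1.37 and the nitrate reductases NIA1 and NIA2 fell by 0.72 and 0.81, G6PD3 rose by 1.03 and LBD37 fell by 1.24. Phosphate starvation genes fell in 10 of 19 cases (52.6%, background 22.3%) and rose in 4, or 13 and 3 after rescaling, with PS2, the transporter PHT1;1 and GDPD1 lower by 1.58, 1.37 and 1.31 and RNS1 higher by 1.26, GDPD1 being overlapped on the opposite strand over 44.7%. Genes of dark and sugar starvation fell in 11 of 13 cases (84.6%, background 22.3%), with the same count after rescaling. SEN1, a dark-induced gene, had 22.4, 36.75 and 53.2 RPM in replicate 3 and 136.6, 226.1 and 433.7 RPM in replicate 1 (difference −2.65, SE 0.12, adjusted p = 7.24e-10), ASN1, an asparagine synthetase that sugar represses, fell by 1.99, BCAT2 by 1.35 and TPS8 by 1.20. The sugar-induced list gave APL3 up by 0.57 and GPT2 down by 0.70 of 3 tested.

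**Figure D4:**
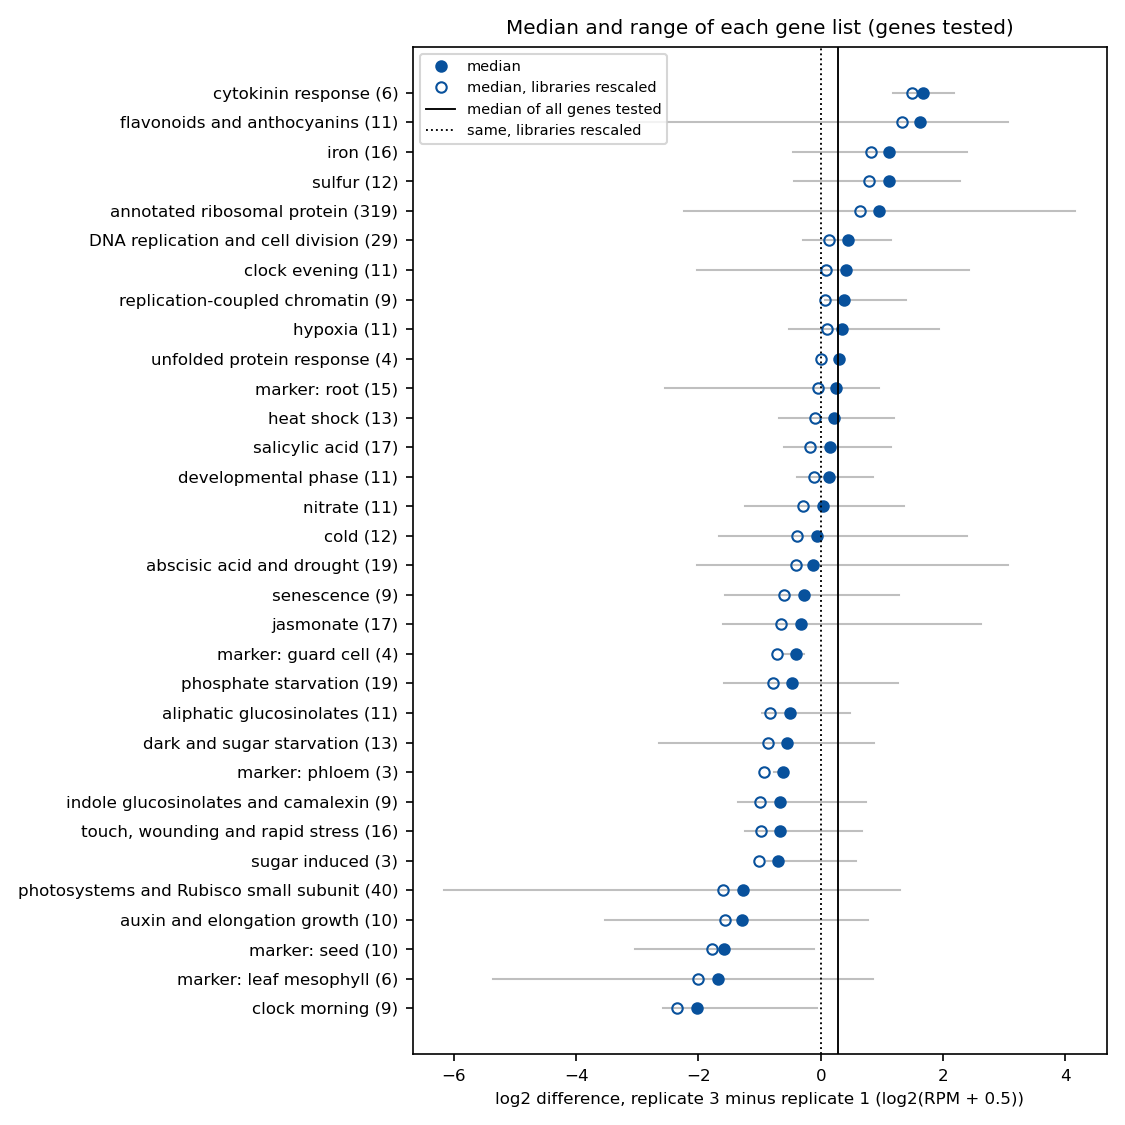
Median log2 difference, replicate 3 minus replicate 1, of each gene list with at least 3 genes tested, as deposited (filled circle) and with libraries rescaled (open circle). The line is the range over its genes, and the number of genes tested is in brackets. Groups added after values were seen (extensins, organelle-like loci, histones and flavonol synthesis) are left out. The vertical lines mark the median of all 22007 genes, 0.28 as deposited and 0.001 rescaled. The median is −2.03 for morning clock genes and 1.68 for cytokinin response genes.

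Stress and hormone lists were mixed. Rapid touch and wounding genes fell in 10 of 16 cases (62.5%, background 22.3%), or 11 after rescaling, with ZAT10, WRKY33 and the wall enzyme TCH4 lower by 1.24, 1.19 and 1.02 and DIC2 by 0.97. Jasmonate genes fell in 8 of 17 (47.1%, background 22.3%) and rose in 4, or 13 and 3 after rescaling, where VSP2 fell by 1.59 (adjusted p = 0.000174, and 0.127 without the genotype block) and JAZ1 by 1.05 and the defensin PDF1.2A rose by 2.62. JAZ5 had 2, 2.25 and 3.8 RPM in replicate 3 and 3.3, 6.05 and 7.4 RPM in replicate 1. Salicylic acid genes rose in 8 of 17 (47.1%, under the 55.2% of all genes) and fell in 2 as deposited. After rescaling 4 rose and 9 fell, so the list has no direction that holds under both scalings. EDS5, which exports salicylic acid precursor from the chloroplast, rose under both (1.15 and 0.83), as did PR5 (0.77 and 0.46), SARD1 (0.86 and 0.55) and PBS3 (0.70 and 0.38). Without the genotype block DIC2, PR5, SARD1 and PBS3 no longer passed, nor did CRA1, HT1, SEP3, GPT2, APL3, PAD3 and BZIP60, named elsewhere. Drought genes moved in both directions, and the balance turned with the scaling: of 19, 7 rose (36.8%, background 55.2%) and 6 fell as deposited, and 5 rose and 8 fell after rescaling. KIN2 had 12.7, 59.3 and 88.9 RPM in replicate 3 against 0.8, 5.3 and 25.9 RPM in replicate 1. HAI1 rose by 1.72, and NCED3, the rate-setting gene of abscisic acid synthesis, fell by 1.59. GOLS2, of raffinose synthesis, fell by 2.02.

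Smaller stress groups showed similar mixtures. Of 12 cold genes 4 rose (33.3%, background 55.2%) (KIN1 by 2.38, ZAT12 by 1.32 and COR15B by 1.07 among them) and 6 fell (CBF2 by 1.67), or 4 and 7 after rescaling. Heat shock genes rose in 6 of 13 (46.2%, under the 55.2% of all genes) and fell in 2, or 4 and 3 after rescaling. Of these, HSFA2 rose by 1.19 and the small heat shock protein gene HSP17.4 by 0.78, which is overlapped on the opposite strand over 70.9% of its length. Of 11 hypoxia genes 6 rose (54.5%, near the 55.2% of all genes) and 2 fell, or 4 and 2 after rescaling. SRO5 rose by 1.93, SUS1 by 1.14 and ADH1 by 0.93. The unfolded protein genes BIP1, BIP2 and BZIP60 rose by 0.24 to 0.34 as deposited and differed by −0.08 to 0.01 when rescaled (adjusted p = 0.223 to 0.872), so their rise rests on the scaling. Aliphatic glucosinolate genes fell in 7 of 11 (63.6%, background 22.3%), or 9 after rescaling (MAM1 by 0.96, MYB29 by 0.93, FMOGS-OX1 by 0.85 and CYP79F2 by 0.54). Of the indole and camalexin genes 6 of 9 fell (66.7%, background 22.3%), or 7 after rescaling, CYP71A12 by 1.36, CYP83B1 by 1.29 and CYP81F2 by 1.11, and PAD3 rose by 0.74. Of 9 senescence genes 4 rose (44.4%, under the 55.2% of all genes) and 5 fell (55.6%, background 22.3%), with the same counts after rescaling. SGR1 and SAG21 rose by 1.29 and 1.01, and NAP and SAG29 fell by 1.56 and 1.41. Phase and flowering genes rose in 5 of 11 (45.5%, under the 55.2% of all genes) and fell in 3 as deposited, while 4 rose and 5 fell after rescaling, with SPL4, FUL, SMZ and SPL9 higher by 0.53 to 0.86.

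Cell division genes rose in 20 of 29 cases as deposited (69.0%, background 55.2%) and fell in 1, CYCD3;1. After rescaling 13 rose and 10 fell. KNOLLE, a syntaxin of the dividing cell plate, had 20.2, 22.95 and 34.6 RPM in replicate 3 and 8.7, 10.35 and 14.7 RPM in replicate 1 (difference 1.14, SE 0.08, adjusted p = 2.47e-08). CDKB1;1 and CDKB2;2 rose by 1.05 and 0.96 and PCNA2 by 0.83, whereas the replication helicase genes MCM2, MCM3, MCM5 and MCM7 differed by 0.03 to 0.14 and did not pass. In bulk tissue fewer cells of a type and less RNA per cell cannot be told apart. Of 9 genes of chromatin assembly at replication 7 rose (77.8%, background 55.2%), or 4 after rescaling, with 2 lower. The histone chaperone gene ASF1B rose by 1.39, MSI1 by 0.73 and the DNA methyltransferase gene CMT3 by 0.68.

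DDM1 itself was higher in replicate 3 in 7 of 8 pairs (difference 0.82, SE 0.11, adjusted p = 1.02e-05). In replicate 3 it had 8.6 RPM in *ddm1*-ColxC24, 8 in *ddm1*-C24xCol, 2.6 in *ddm1*-Col, 13.2 in *ddm1*-C24, 10.7 in WT-ColxC24, 12.1 in WT-C24xCol, 12.6 in WT-Col and 12.4 in WT-C24. In replicate 1 the values in the same order were 4.1, 4.1, 2.6, 6.7, 5.8, 5.8, 6.3 and 6 RPM. In both numbers *ddm1*-Col was lowest, the *ddm1* hybrids lay between, and *ddm1*-C24 was not below the WT libraries, so DDM1 transcript level does not check the label of *ddm1*-C24.

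Cell type markers showed what tissues could differ. Root markers rose in 7 of 15 cases (46.7%, under the 55.2% of all genes) and fell in 4 (26.7%, background 22.3%), or 4 and 5 after rescaling. PIN2, an auxin exporter, was higher by 0.87. The root hair wall genes PRP3 and LRX1 fell far more: PRP3 had 11.8, 18.05 and 21.7 RPM in replicate 3 and 81.6, 102.95 and 126.5 RPM in replicate 1 (difference −2.54, SE 0.06, adjusted p = 4.23e-12), and LRX1 fell by 2.48. EXPA7 and EXPA18, other root hair genes, had differences of 0.39 and 0.27 as deposited and 0.10 and −0.04 rescaled. All 4 guard cell markers fell (FAMA by 0.61, KAT1 by 0.42, MYB60 by 0.37 and HT1 by 0.28), as did all 3 phloem markers (SEOR1 by 0.76, APL by 0.62 and SUC2 by 0.61). The background for a fall was 22.3%, or 37.4% after rescaling, where all 4 and all 3 were lower too. The meristem gene STM did not pass as deposited (−0.06, adjusted p = 0.659) but was lower after rescaling (−0.33, adjusted p = 0.019). Of the 2 meristem markers tested, 0 were called as deposited and 2 were lower after rescaling, so their result rests on the scaling. Of the flower genes SEP3 fell by 0.69.

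PRP3 and LRX1 carry extensin-type proline-rich repeats, and 3 further groups were looked at after these values were seen. The flavonol synthesis group above was also chosen after values were seen. Of 58 genes annotated as extensins, repetitive wall glycoproteins, 34 fell (58.6%, background 22.3%) and 16 rose, or 40 and 12 after rescaling, and their summed level was 2594 to 3022 RPM in replicate 3 and 11978 to 14847 RPM in replicate 1. AT3G54580 had 43.5, 68.15 and 87.6 RPM in replicate 3 and 525.6, 818.7 and 1002.8 RPM in replicate 1, and EXT6 and EXT10 fell by 3.74 and 3.62. The proline-rich genes AT3G22142 and AT4G22485, of the lipid-transfer type, also fell, AT3G22142 with 6.8, 12 and 21.9 RPM in replicate 3 against 153.7, 267.4 and 366 RPM in replicate 1 and AT4G22485 by 3.80, and both are overlapped on the opposite strand over 90.6% and 92.7%. Of 39 tested nuclear loci with at least 90% of their length matching the mitochondrial or plastid genome, 34 fell (87.2%, background 22.3%) and 1 rose. AT2G07783 among them had 0.3, 0.5 and 1.4 RPM in replicate 3 and 31.5, 40.65 and 80.3 RPM in replicate 1, and reads of the organelle and of its nuclear copy cannot be told apart. Histone genes rose in 23 of 29 cases (79.3%, background 55.2%) and fell in 3, or 20 and 6 after rescaling, and AT3G46320 rose by 2.83.

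The replicate 2 libraries, outside the test, did not lie at the same place for every group. A score was taken as the mean over the 12138 genes called higher minus the mean over the 4904 called lower. On it they were 58.1 to 72.4% of the way from replicate 1 to replicate 3 in 7 genotypes, and 97.9% in *ddm1*-C24. Of the 3101 higher genes with a fold over 2, 334 had a replicate 2 mean (7 genotypes) under 25% of the way. For 1486 it was from 25 to 75% and for 1281 over 75%. For the 931 lower genes with a fold over 2 those counts were 213, 331 and 387. Replicate 3 and replicate 1 enter both ends of these shares, so they are a description.

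Light-harvesting, PIF and flavonol genes were near replicate 1 in these 7 libraries. LHCB2.2 had 991.6 to 3002.1 RPM there, PIF4 108.1 to 144.5 RPM, FLS1 2.8 to 9 RPM, RVE2 3.1 to 15.6 RPM and ARR4 43.8 to 67.7 RPM, the last between both numbers. *ddm1*-C24 replicate 2 had 52.9, 14.5, 67.6, 103.4 and 110.9 RPM of the same genes. Some wall genes and AT2G07783 were instead at the level of replicate 3. PRP3 had 13 to 19.3 RPM, AT3G54580 49.1 to 76.6 RPM, AT2G07783 0.2 to 0.9 RPM, and the extensin sum was 2856 to 3212 RPM over all 8. The organelle-like list as a whole lay between, with medians of −0.73 for replicate 2 and −1.14 for replicate 3, both relative to replicate 1 in 7 genotypes. Ribosomal genes lay between too, with a median of 0.45 above replicate 1 and the 7-genotype median of replicate 3 at 0.95. Some lists passed beyond replicate 1, such as phosphate starvation (median 0.81 above it, with replicate 3 at −0.53).

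Clock genes varied among the replicate 2 libraries themselves. CCA1 had 1.7 to 74.8 RPM there and was highest in WT-C24 and WT-C24xCol, at 74.8 and 62 RPM, levels that no replicate 3 or replicate 1 library reached. GRP7 had 729.9 to 5627.1 RPM and ELF4 4.8 to 90 RPM. Within replicate 3 the same genes ran from 0.8 to 2, 3601 to 4397 and 90.2 to 112.9 RPM, and within replicate 1 from 4.7 to 17.9, 995 to 1770 and 12.3 to 31.4 RPM.

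**Figure D5:**
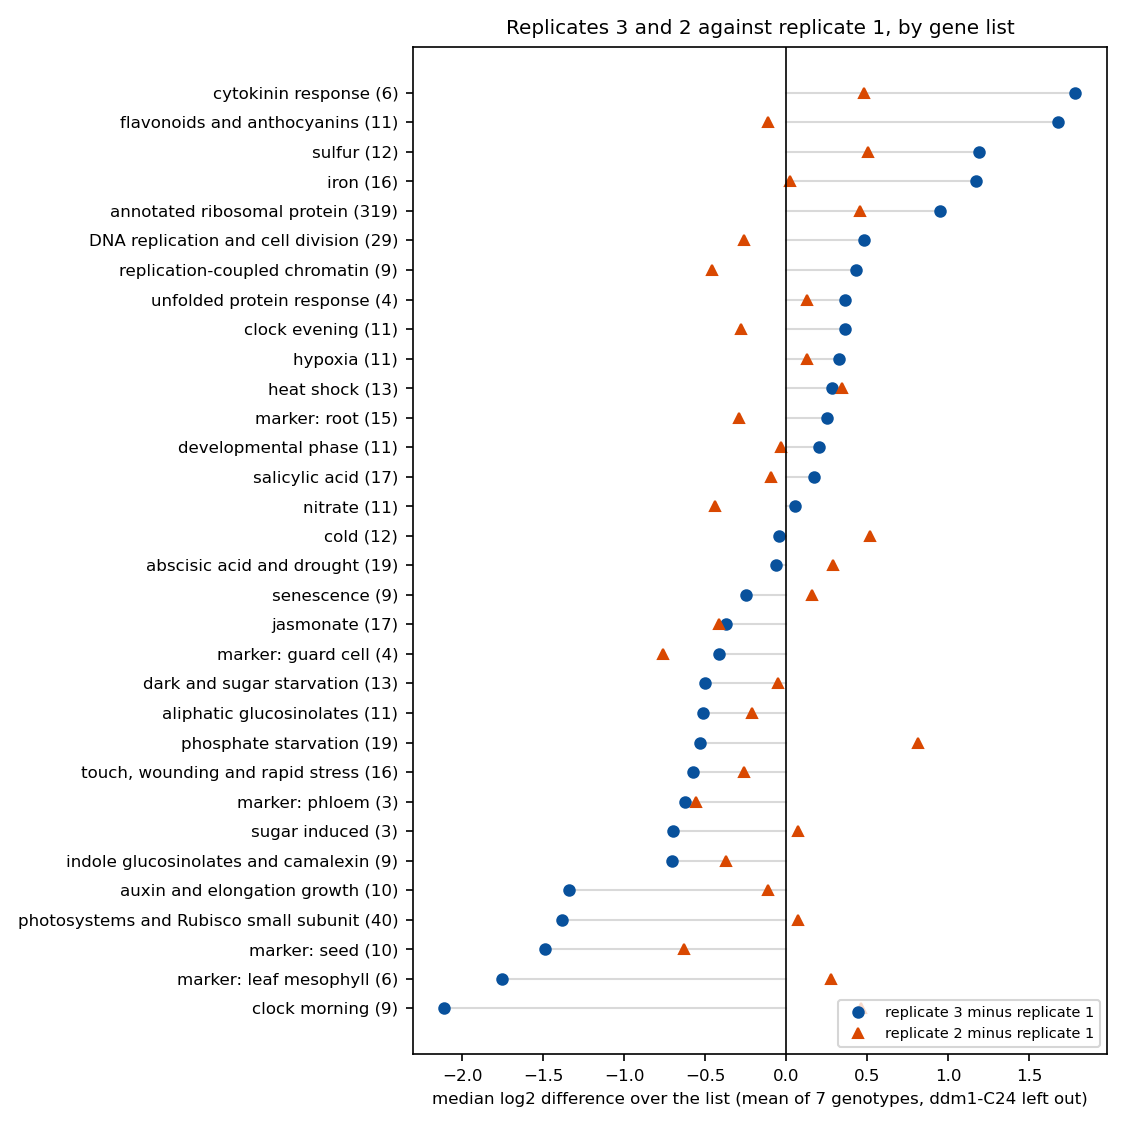
Median log2 difference from replicate 1 for each gene list, for replicate 3 (circles) and replicate 2 (triangles), as means of 7 genotypes with *ddm1*-C24 left out. Cytokinin response stands at 1.78 for replicate 3 and 0.48 for replicate 2, and flavonoids at 1.68 and −0.11.

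Whether the shift between the numbers depended on the genotype was tested in the same 16 libraries. Between the 4 *ddm1* and the 4 WT genotypes the shift differed for 628 genes (2.85%), more positive in *ddm1* for 399 and more negative for 229. Of the 628, 372 were annotated pseudogenes and 413 were under 1 RPM in every WT library, so that WT had little to shift. AT1G34530, an uncharacterised gene, had 243.4 to 296.2 RPM in *ddm1* replicate 3 and 79 to 101.5 RPM in *ddm1* replicate 1, and at most 0.1 RPM in WT. AT3G25719 had 25.1 to 36.7 RPM in *ddm1* replicate 3 and 4.2 to 5.7 RPM in *ddm1* replicate 1. AT3G32020 went the other way, with 6 to 26.8 RPM in *ddm1* replicate 3 and 22 to 103.8 RPM in *ddm1* replicate 1, and so did AT4G07939 (difference of shifts −2.72). Among the 215 genes with at least 1 RPM in a WT library, 136 shifted the same way in both backgrounds, and 65 of these by less in *ddm1*. The count of 628 was 271 without WT-ColxC24, 244 without WT-C24xCol, 411 without WT-C24, 302 without *ddm1*-ColxC24 and 315 without *ddm1*-C24xCol, each left out in both numbers, and 281 with a pseudocount of 0.1.

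GI was one of those. Its shift was −1.46 in *ddm1* and −2.58 in WT, a difference of 1.12 (SE 0.12, adjusted p = 0.00106), with 77.3 to 97.1 RPM in *ddm1* and 34.5 to 54.7 RPM in WT of replicate 3. In replicate 1 it had 221.9 to 259.7 RPM in *ddm1* and 262.9 to 277.9 RPM in WT. PRR7 and PIF4 also shifted less in *ddm1* (differences 0.83 and 0.83, adjusted p = 0.00147 and 0.0208), as did LHCB1.1 (0.72, adjusted p = 0.0446). Between the 4 hybrids and the 4 inbred genotypes, 0 genes (0%) had a different shift by limma. An unadjusted p under 0.05 was reached by 590 of 22007 genes, a smaller share than the 0.05 of that threshold. The smallest p belonged to CYP705A5, a root triterpene gene, with a difference of 0.87 (adjusted p = 0.999), whose WT-C24 and *ddm1*-C24 libraries were at 0 to 0.2 RPM. AT1G24145, ILL5 and AT1G70680 followed with the same adjusted p.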

How the data were processed

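The 16 RNA libraries were 2 for each of 8 genotypes, and the authors deposited 1 table of RPM values per gene, each library's gene count scaled to its total and rounded to 0.1 RPM. The submitters' processing notes name TopHat, HTSeq and BSMAP and the build TAIR10. The paper's methods state trimming, alignment of Illumina reads with TopHat and counting with HTSeq. Strandedness and the HTSeq settings are not given in the sources used here. Whole reads could not be recovered from the rounded values, so no count test was run, depth is unknown and precision is limited by the 0.1 RPM step. Every column of the table belonged to a labelled library. The 4 bisulfite samples were not analysed here.

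Samples were grouped by genotype and replicate number from the labels. Genes with at least 1 RPM in 3 of the 16 libraries were tested with limma (3.58.1, R 4.3.3) on log2(RPM + 0.5), with the trend option, genotype as a block, two-sided tests and Benjamini-Hochberg adjustment over all 22007 genes. The contrasts of shifts came from the same kind of fit with an added term for the shift in the *ddm1* or the hybrid genotypes. The pipeline was tested on simulated data in which only a small share of genes changed, so that test did not cover a shift as broad as this one. Rescaling used the median ratio to the gene means over the 16 libraries. Nothing in the labels says whether the libraries of a genotype came from separate cultures, and p-values measure only the spread of the shift among these genotypes, part of which may be technical. Genes were matched by locus to TAIR10.1 (21979 of 22007), which gave GC content, length and promoters, 250 bases before to 50 after the start. Near copies in the organelle genomes were found with blastn.

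Genes were named by rule: the 12 largest rises and 12 largest falls with the same sign in all 8 pairs, a mean of at least 5 RPM and an annotation; up to 4 genes per list by size among those called, or the largest where none was; DDM1; and the 4 smallest p of each contrast of shifts. Other genes named were chosen after their values were seen. The members and gene lists were chosen with earlier results of these data known. Alternatives covered the pseudocount, filter, scaling, block, trend, fold thresholds and leaving out each pair.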

Additional observations from a re-analysis of the deposited data

Results flagged for a closer look

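Among 142 named genes, 10 had 1 genotype pair whose replicate 3 minus replicate 1 difference stood further from the other 7 than Dixon's 95% critical value allows, and chance gives such a gap in about 1 of 20 groups. Pairs with *ddm1*-C24 were apart for 3 genes: SEP3 had 0.274 there and −1.13 to −0.556 elsewhere, LHCB2.3 had −5.08 against −6.5 to −6.01, and RVE2 had 3.47 against 4.52 to 5.05. WT-ColxC24 was apart for CYP83B1 (−1.85, others −1.42 to −1.04) and UPM1 (1.62, others 1.25 to 1.4). *ddm1*-C24xCol was apart for AT3G11120 (3.91, others 3.07 to 3.42) and CYP81F2 (−2.16, others −1.16 to −0.601). HT1 had −0.721 in WT-C24xCol and −0.322 to −0.148 elsewhere, and SUS1 had 0.643 in WT-Col and 1.07 to 1.45 elsewhere. DDM1 had 0 in *ddm1*-Col and 0.83 to 1 elsewhere.

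The shift between the numbers differed between *ddm1* and WT by the limma contrast for 10 named genes, given as *ddm1* minus WT. It was less negative in *ddm1* for GI (1.12), PRR7 (0.83), PIF4 (0.828) and LHCB1.1 (0.721). It was more negative in *ddm1* for ZAT10 (−0.668) and DIC2 (−1.7). AT1G34530 (1.5), AT3G25719 (2.36), AT3G32020 (−1.8) and AT4G07939 (−2.72) were at no more than 0.1 RPM in WT libraries.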

How the results depend on the processing

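Of 2414 values of 142 named genes under 17 alternatives, 2385 kept their direction and side of the threshold, 21 were no longer called, 2 were newly called and 6 changed sign. The total of 17042 ran from 16254 to 16879 with 1 genotype pair left out and was 13993 without the genotype block, where 128 of the 142 named genes were called. With a fold over 2 required, 4032 genes remained in the count, 3101 higher and 931 lower in replicate 3. Against a fold of 1.2, 2976 were lower. The lower count was 8233 with median ratios and 8218 with TMM scaling. BZIP60 was −0.078 and −0.076 under those scalings and BIP1 −0.020 and −0.018. STM ran from −0.117 to 0.011 with 1 pair left out and was 0.011 without *ddm1*-Col and 0.0062 without *ddm1*-ColxC24. With median ratios STM was −0.331 and with TMM scaling −0.329, and it was newly called under both. The contrast of *ddm1* and WT shifts gave 281 genes with a pseudocount of 0.1 and 244 to 689 with 1 pair left out (271, 411, 302 and 315 among them), and that of hybrid and inbred shifts 0 under every alternative run. The spread of the second axis between numbers was 45.8% with a pseudocount of 0.1 and 46.2% with unit-variance genes. The causes were not tested. By replicate number, no paired analysis was possible because that number is itself what is compared. The test paired libraries by genotype, which is the block whose removal is given above. Values near the 0.1 RPM step, such as LHY, are the least precise.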
